A study of Mus musculus with 6 samples.

Results

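Of 96 nuclear genes of mitochondrial respiration, 88 had open chromatin at an end of the gene in every library, after doxorubicin as after saline. The libraries were of mesenchymal stem and progenitor cells of mouse bone marrow. None of these genes that were tested passed a limma adjusted p of 0.05 in any of 3 comparisons of the groups. Over all features tested, 0.438% of gene ends, 0% of open regions and 1.11% of genes by number of peaks passed. Gene ends were tested for 88 of the 96 and the number of peaks for 31. The members were the mm10 protein-coding genes whose symbols start with Nduf, Uqcr, Atp5 or Cox4 to Cox8, with Sdha, Sdhb, Sdhc and Sdhd. They were 96 of 21631 protein-coding genes on chromosomes 1 to 19 and X. By the complexes to which their names belong they were 7 core subunits, 32 supernumerary subunits and 8 assembly factors of complex I, 4 subunits of complex II, 8 of complex III, 20 of complex IV, with Ndufa4 and Ndufa4l2 among them, and 17 of complex V.

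The cells were sorted by tdTomato from the bone marrow of female mice of genotype Lepr-Cre;LSL-tdTomato+/-, in which Cre driven by the leptin receptor gene switches on the red reporter in stromal cells of that lineage. The mice were 8 to 10 weeks old when treated. The DOX group had received 4 intravenous doses of 5 mg/kg doxorubicin at intervals of 1 week, and the PBS group the same number of injections of phosphate-buffered saline. Marrow was taken 8 weeks after treatment, and each group held 3 ATAC-seq libraries. Doxorubicin is an anthracycline that traps topoisomerase II on cut DNA and is used against many cancers. How many mice stand behind a library is not stated in the labels, and p-values therefore reflect only how far libraries of a group differ, which may in part be technical.

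Complexes I to IV pass electrons from NADH and succinate to oxygen and, except for complex II, pump protons out of the mitochondrial matrix, and complex V uses the returning protons to make ATP. Some core subunits are encoded in mitochondrial DNA and the others, together with all supernumerary subunits, in the nucleus. The nuclear promoters are known for sites of NRF1, of GABP (also called NRF2, an ETS family factor), of YY1 and of SP1. Several subunits of complex IV exist as a common form and a form restricted to muscle, lung or testis.

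ATAC-seq marks accessible DNA by the cuts of the Tn5 transposase, and the deposited files list the peaks of each library. The DOX lists held 91026, 91060 and 100642 peaks and the PBS lists 88348, 89264 and 65462. The background of the peak caller, in fragments per position, was 1.72, 1.67 and 2.22 in DOX libraries and 1.27, 1.10 and 0.558 in PBS libraries. Each DOX library was deeper by this measure than each PBS library, so that depth and treatment cannot be told apart in raw peak values. The strongest 65462 peaks of each library were therefore kept and ranked, and the strength of a peak is given as its list position in percent, where 0 is the strongest peak of the library and 100 the weakest one kept. The median width of kept peaks was still 505, 516 and 542 bp in DOX libraries, against 439, 476 and 328 bp in PBS libraries. A gene end counted as open when a peak touched the 1 kb on either side of it. A missing peak means a signal under the cut of that library, and more cells with an open site cannot be told apart from a site more open in each cell. Of 11 marker genes of these stromal cells, 10 had an open end in all 6 libraries, among them Lepr, Cxcl12 and Kitl, and Prrx1 had one in 5. The rank score of 9 of these 10 was higher in DOX libraries and that of 1 lower, beside 6237 of 12327 higher over all genes tested. All DOX libraries stood above all PBS libraries in 4 of the 10 and below in 1. Adipoq stood at 8.09, 8.63 and 7.57% in DOX libraries and 14.9, 14.4 and 11.8% in PBS libraries. It passed the test described below (+0.30, limma adjusted p = 0.0176). Peaks assigned to the 11 marker genes, as described below, summed to 172, 185 and 170 in DOX libraries. In PBS libraries they summed to 162, 179 and 255, so that the groups overlapped. By number of peaks limma called 1 of the 11, higher in DOX libraries. The part of such shifts in the members' values was not tested. Of markers of other cell types, 2 of 8 for B cells, 1 of 8 for myeloid cells, 2 of 8 for erythroid cells and megakaryocytes, 2 of 8 for endothelium, 1 of 8 for T and NK cells, 2 of 8 for skeletal muscle and 1 of 8 for germ cells were open in all 6.

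The starts of these genes are shown first, since the peaks lie on them. The 250 bases before the annotated start of 6 members follow, from RefSeq on GRCm38.p6, the assembly of mm10, written 5′ to 3′ along the strand of the gene. Capitals mark matches, on either strand, to the NRF1 motif (GCGCA, then any base, then GCGC), the GABP/ETS motif CCGGAAG or the YY1 motif ATGGCGG. Atp5g2 (chr15:102671048-102671297, minus strand) encodes a copy of subunit c, which forms the rotating ring of ATP synthase, and Cox6a1 (chr5:115348959-115349208, minus strand) encodes the common form of a complex IV subunit; both hold NRF1 matches. Uqcr11 (chr10:80406822-80407071, minus strand) encodes a small subunit of complex III and holds a GABP/ETS match. Ndufaf7 (chr17:78936885-78937134, plus strand) encodes a methyltransferase needed to assemble complex I and holds a YY1 match. Atp5j (chr16:84834977-84835226, minus strand, before the more downstream of 2 annotated starts) encodes coupling factor 6 of ATP synthase and was chosen after its values were seen, because it starts head to head with Gabpa, the gene of the DNA-binding subunit of GABP. Cox8b (chr7:140900447-140900696, minus strand), the form of subunit 8 found in heart, skeletal muscle and brown fat, had no peak at its start in any library and holds none of the motifs searched in these bases.
Atp5g2: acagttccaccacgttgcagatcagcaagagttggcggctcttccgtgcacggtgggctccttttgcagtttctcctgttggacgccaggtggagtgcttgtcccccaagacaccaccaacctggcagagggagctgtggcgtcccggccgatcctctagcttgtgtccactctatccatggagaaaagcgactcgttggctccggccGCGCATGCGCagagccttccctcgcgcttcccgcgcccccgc
Cox6a1: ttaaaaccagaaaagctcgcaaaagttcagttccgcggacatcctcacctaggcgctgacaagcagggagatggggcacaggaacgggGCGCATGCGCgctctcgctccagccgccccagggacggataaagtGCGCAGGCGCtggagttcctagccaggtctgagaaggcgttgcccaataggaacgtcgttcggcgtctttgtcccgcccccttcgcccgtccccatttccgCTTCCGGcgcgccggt
Uqcr11: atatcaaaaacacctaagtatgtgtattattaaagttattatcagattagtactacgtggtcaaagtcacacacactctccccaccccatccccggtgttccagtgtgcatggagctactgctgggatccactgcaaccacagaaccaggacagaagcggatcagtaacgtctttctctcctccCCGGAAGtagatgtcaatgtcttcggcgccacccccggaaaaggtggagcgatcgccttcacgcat
Ndufaf7: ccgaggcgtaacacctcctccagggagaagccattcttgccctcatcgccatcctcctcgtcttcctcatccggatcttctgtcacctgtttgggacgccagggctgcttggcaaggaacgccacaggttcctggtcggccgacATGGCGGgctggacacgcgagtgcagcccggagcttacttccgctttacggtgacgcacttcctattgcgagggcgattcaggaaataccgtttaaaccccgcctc
Atp5j: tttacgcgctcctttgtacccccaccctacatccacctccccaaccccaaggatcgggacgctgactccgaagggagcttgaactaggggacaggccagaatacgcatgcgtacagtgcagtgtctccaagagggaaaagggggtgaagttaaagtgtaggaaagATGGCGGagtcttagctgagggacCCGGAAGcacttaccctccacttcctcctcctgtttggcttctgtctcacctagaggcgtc
Cox8b: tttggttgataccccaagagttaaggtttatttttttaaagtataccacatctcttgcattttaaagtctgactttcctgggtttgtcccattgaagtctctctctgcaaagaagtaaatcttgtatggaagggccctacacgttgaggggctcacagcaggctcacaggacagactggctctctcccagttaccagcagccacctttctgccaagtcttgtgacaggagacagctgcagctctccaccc

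An annotated start was given for 78 of the 96 members, and 75 of them (96.2%) had a peak on the stretch from 250 bases before to 50 after a start in all 6 libraries. Among all protein-coding genes the share was 9600 of 17274 (55.6%). The exceptions were Cox8b, Cox7b2, a testis form of a complex IV subunit, and Ndufb4b, a gene model named after the complex I subunit Ndufb4. The summits of these peaks lay just before the start: over 80 starts of members the median was −38.5 bp, and 59 (73.8%) lay within 100 bp of the start, against 62.6% of 11286 starts of all genes. In Atp5g2 the summit was 130, 130 and 131 bp before the start in DOX libraries and 131, 130 and 205 bp before it in PBS libraries. In Ndufaf7 it was 20, 24 and 22 bp before the start in DOX libraries and 24, 22 and 25 bp in PBS libraries. The summits of Atp5j alternated between 12 bp before the start and 63 to 64 bp after it in libraries of both groups.

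**Figure D1:**
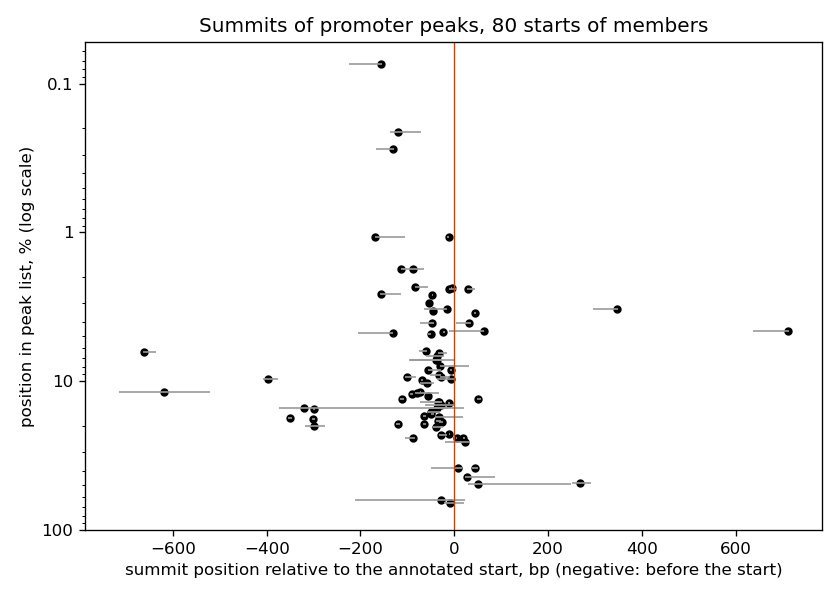
Summits of promoter peaks relative to the annotated start (horizontal axis, bp, negative before the start) against the mean list position over 6 libraries (vertical axis, percent, log scale, strongest at the top) for 80 starts of members. Points are medians over the 6 libraries and grey lines run from the lowest to the highest library; 59 of 80 points lie within 100 bp of the start.

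NRF1 matches took a larger share of these promoters than of open promoters of all genes. The NRF1 letters occurred in 19 of 78 members (24.4%), against 12.2% of the 9600 genes with a promoter peak in all 6 libraries and 7.25% of all 17274 genes. The members were Atp5c1, Atp5g2, Atp5g3, Atp5h, Atp5k, Atp5o, Cox6a1, Ndufa5, Ndufa6, Ndufa8, Ndufa11, Ndufaf4, Ndufaf5, Ndufb4, Ndufs5, Ndufs6, Sdha, Sdhd and Uqcrc1, so that complexes I to V were all represented. The GABP/ETS letters also occurred in 19 members (24.4%), against 20.9% of genes with such a peak and 13.1% of all genes. Atp5h, Atp5k, Cox6a1 and Sdhd held both, and 34 members (43.6%) held at least 1 of these motifs, against 30.4% and 18.8%. YY1 matches were found in 12 members (15.4%), against 9.78% and 6.12%, and cAMP response elements (TGACGTCA) in 4 (5.13%), against 3.85% and 2.58%. The SP letters GGGCGG were present in 35 members (44.9%), against 73.2% of genes with a promoter peak in all 6 libraries and 49.8% of all genes, and the TATA letters TATAAA in 8 (10.3%), against 8.15% and 14.9%. With genes of a single annotated start only, SP matches stood at 45.2% of 73 members and 71.0% of 7578 genes with a peak, and NRF1 matches at 23.3% and 11.9%. A match describes the letters and is not a bound site, and some matches of different motifs can overlap.

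**Figure D2:**
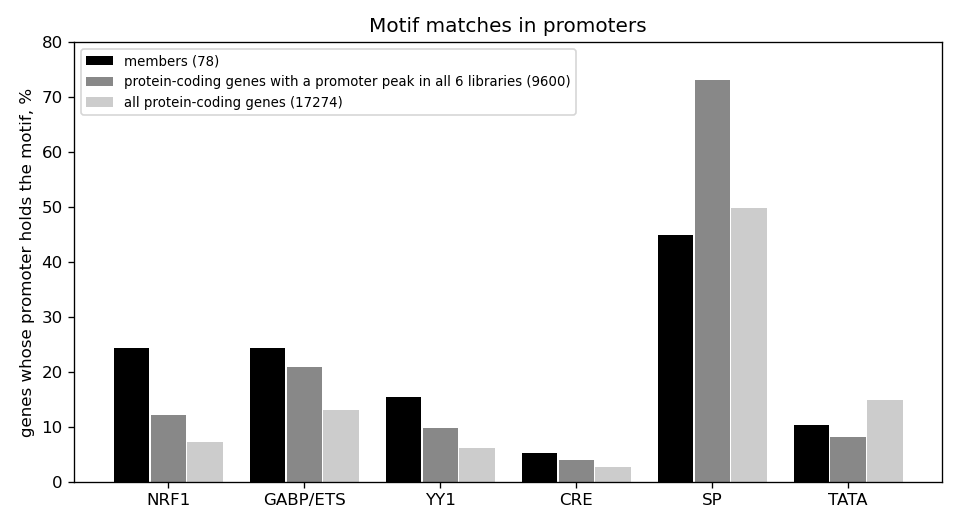
Share of genes, in percent, with a match to each motif on either strand between 250 bases before and 50 after an annotated start. Bars are the 78 members with a start, the 9600 genes with a promoter peak in all 6 libraries and all 17274 genes; NRF1 stands at 24.4% of members and 12.2% of genes with a peak, SP at 44.9% and 73.2%.

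Many members lie close to another gene. Of the 96, 54 (56.2%) had an end of another protein-coding gene within 1 kb of an end of their own, against 25.1% of all genes, so that a peak there can belong to either gene. Of the 78 with a start, 23 (29.5%) began head to head with a neighbour, against 8.68%. Besides Atp5j and Gabpa, pairs included Ndufb5 with Mrpl47, a gene of the mitochondrial ribosome, Sdhd with Timm8b, of the mitochondrial import machinery, and Ndufa7 with Rps28, of the cytosolic ribosome. Members were also compact, with a median span of 7228 bp against 17329 bp over all genes.

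By gene ends, 88 of the 96 members (91.7%) were open in all 6 libraries, against 12327 of 21631 protein-coding genes (57.0%). The single libraries held 89, 88 and 89 open members in the DOX group and 89 in each PBS library. Core subunits and assembly factors of complex I and complexes II, III and V were open at every member, 30 of 32 supernumerary subunits of complex I were, and 14 of 20 genes of complex IV were. In genes of the mitochondrial ribosome the count was 75 of 78 (96.2%) and in those of the cytosolic ribosome 78 of 82 (95.1%). No member was open in all libraries of one group and in none of the other, which over all genes held for 0.18% in the DOX direction and 0.0231% in the PBS direction.

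The members without a gene-end peak in some or all libraries fall into 3 kinds. Cox6a2 and Cox8b, of heart and skeletal muscle, Cox7b2 and Cox8c, of testis, had none in any library. Ndufb4b and Ndufb4c, gene models named after Ndufb4, had none either. Cox5a and Cox7a2 were open at their starts, which lie inside the annotated gene spans. The start of Cox5a, a nuclear subunit of complex IV, had peaks at positions 5.23, 6.45 and 5.75% in DOX libraries and 7.07, 7.55 and 6.86% in PBS libraries. The DOX peaks of Cox5a all stood above the PBS peaks, with a score difference of +0.11 (SE 0.060; limma adjusted p = 0.456 over all regions). The start of Cox7a2 had peaks at 4.54, 3.06 and 3.78% in DOX libraries and 3.30, 3.29 and 2.89% in PBS libraries, and the groups overlapped.

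Restricted isoforms were not uniformly closed: 4 of 8 had an open end in all 6 libraries. Cox7a1, the heart and skeletal muscle form of subunit 7a, stood at 10.7, 9.30 and 9.09% in DOX libraries and 10.8, 11.2 and 10.1% in PBS libraries, and its start, with a summit a median of 58 bp before it, was itself under the peak. Cox6b2, the testis form of subunit 6b, stood at 13.5, 13.1 and 12.8% in DOX libraries and 13.3, 14.03 and 16.8% in PBS libraries, with a median summit 11 bp before its start. Its common partner Cox6b1 had 18.05, 17.2 and 16.3% in DOX libraries and 15.8, 16.6 and 18.2% in PBS libraries. Weaker peaks were listed at Cox4i2, the lung form of subunit 4, with 41.6, 38.1 and 35.6% in DOX libraries and 32.3, 48.8 and 41.5% in PBS libraries. Ndufa4l2, a hypoxia-induced relative of Ndufa4, had 37.1, 35.1 and 29.8% in DOX libraries and 40.0, 32.5 and 32.9% in PBS libraries. In each of these 4 isoforms the DOX and PBS libraries overlapped. The ends of Cox7a1, Cox6b2 and Ndufa4l2 lie within 1 kb of an end of another gene. Of the 7 common partners, 6 were open at a gene end in all libraries and Cox7a2 was open at its start; Cox8a was the strongest of the 6, at 7.78, 6.56 and 6.72% in DOX libraries and 6.28, 7.23 and 8.86% in PBS libraries.

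**Figure D3:**
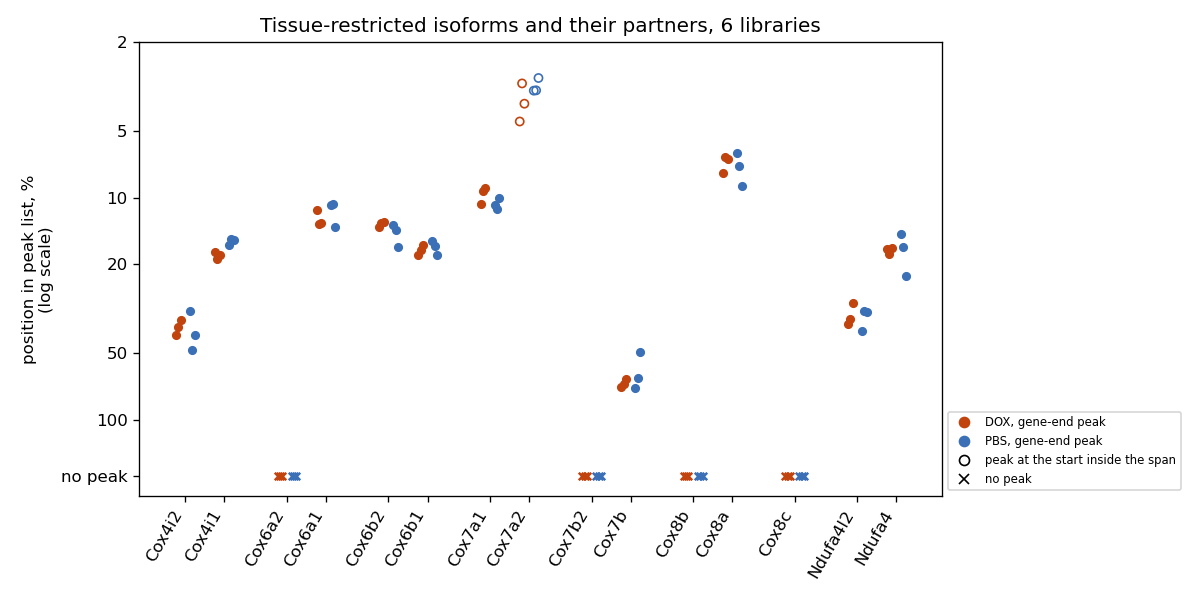
List position in percent (vertical axis, log scale, strongest at the top) of the strongest gene-end peak of 8 tissue-restricted isoforms, each left of its common partner where it has one, with 3 DOX libraries (left) and 3 PBS libraries (right) as points. Open circles are peaks at the start of Cox7a2 inside its gene span and crosses mark libraries with no peak, which are all libraries for Cox6a2, Cox7b2, Cox8b and Cox8c.

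Open members ranged widely in strength, from a mean list position of 0.0742% to 65.6%, with quartiles at 6.29% and 19.4%. Their median was 12.04%, beside 12.1% for all genes with an open end, 13.6% for the mitochondrial ribosome and 7.90% for the cytosolic ribosome, so the typical strength was that of an average open gene. The libraries' medians over members were 12.4, 12.4 and 12.96% in the DOX group and 12.2, 11.98 and 11.3% in the PBS group. By complex the medians ran from 7.82% for assembly factors of complex I and 8.36% for complex V to 14.8% for supernumerary subunits of complex I and 16.2% for complex IV. The strongest member was Atp5g1, another copy of subunit c, at 0.0833, 0.0603 and 0.0817% in DOX libraries and 0.0420, 0.131 and 0.0466% in PBS libraries. Ndufaf8, an assembly factor of complex I that starts head to head with Tepsin, averaged 0.231% in DOX libraries and 0.193% in PBS libraries. In every library this peak was assigned, by the gene span nearest to its summit, to another gene. The only region assigned to Ndufaf8 had peaks in 2 DOX and 2 PBS libraries, at 65.6 to 99.2%. Ndufs8, a core subunit of complex I that carries iron-sulfur clusters, averaged 0.309% in DOX libraries and 0.242% in PBS libraries. Ndufb5 averaged 1.28% in DOX libraries and 0.860% in PBS libraries, and Sdhb 1.22% and 0.943%. The Ndufb5 peak was assigned in the same way to another gene in all DOX libraries and in PBS replicate 3. The 3 copies of subunit c were far apart, with Atp5g2 at 5.83% in DOX libraries and 3.61% in PBS libraries and Atp5g3 at 19.9% and 17.3%.

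Complex II feeds electrons from succinate and is encoded only in the nucleus. Sdha, the flavoprotein that oxidises succinate, stood at 12.7, 11.8 and 16.1% in DOX libraries and 12.98, 13.7 and 15.2% in PBS libraries. Sdhb, its iron-sulfur partner, had 1.60, 0.797 and 1.26% in DOX libraries and 0.737, 1.46 and 0.629% in PBS libraries. Sdhc, a membrane anchor, had 9.28, 11.2 and 10.3% in DOX libraries and 7.83, 9.94 and 9.88% in PBS libraries. Sdhd, the other anchor, had 8.71, 7.73 and 9.32% in DOX libraries and 8.68, 10.3 and 9.51% in PBS libraries. The groups overlapped in all of them, and their score differences lay between −0.11 and +0.057 (limma adjusted p 0.624 to 0.899).

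The 3 members on the X chromosome were among the weaker ones. Ndufa1, a small membrane subunit of complex I, stood at 34.9, 37.5 and 34.3% in DOX libraries and 40.0, 38.4 and 42.9% in PBS libraries. Ndufb11, also of complex I, had 45.8, 48.7 and 43.5% in DOX libraries and 46.9, 46.5 and 56.5% in PBS libraries. Cox7b, of complex IV, had 71.1, 69.2 and 65.9% in DOX libraries and 72.4, 65.3 and 49.6% in PBS libraries and was the weakest open member. Over all open genes the median position was 20.9% for 364 genes on X and 11.9% for 11963 on autosomes, so genes on X stood lower in the lists as a whole.

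**Figure D4:**
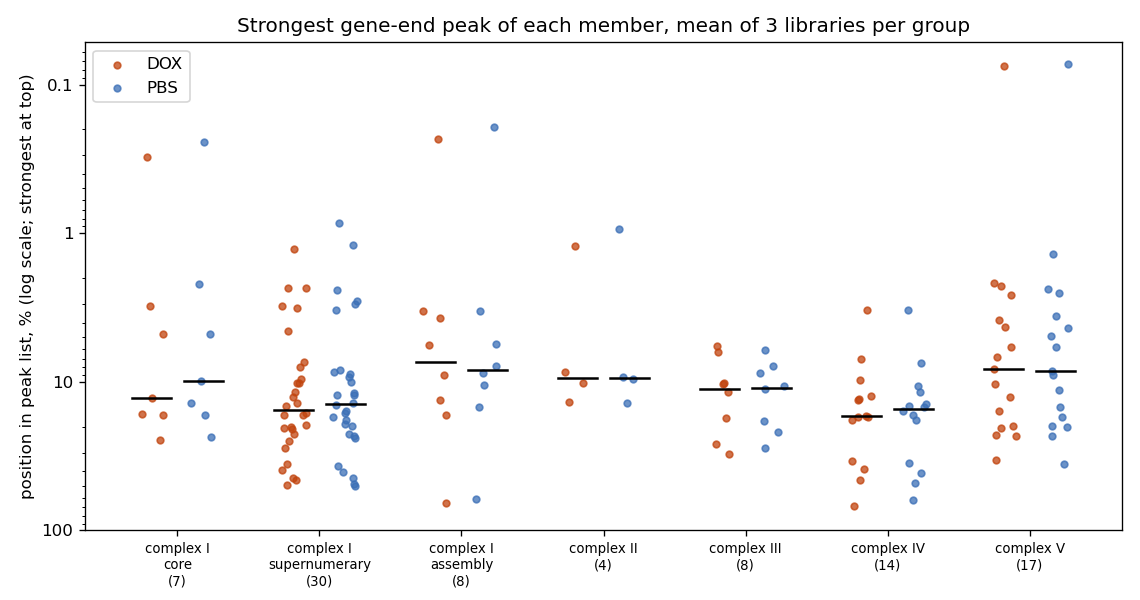
List position in percent (vertical axis, log scale, strongest at the top) of the strongest gene-end peak of each of the 88 members open in all 6 libraries, by complex, DOX left of PBS. Points are means of 3 libraries per group, black bars are medians over members and numbers in brackets count members; the point at the top of complex V is Atp5g1.

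DOX was compared with PBS by the normal score of the list position, which is in SD units and higher for stronger peaks, with limma across the 12327 genes open in all 6 libraries. None of the 88 members passed an adjusted p of 0.05, beside 0.438% of all genes tested (0.324% higher and 0.114% lower in DOX libraries). At an unadjusted p of 0.05 limma listed 12 members, 3 higher and 9 lower in DOX libraries, beside 14.6% of all genes (7.58% higher and 7.05% lower). In 3 members all DOX libraries stood above all PBS libraries (9.99% of all genes) and in 12 members below (10.2%). Scores were higher in DOX libraries for 34 members and lower for 54, with a median difference of −0.032 beside 0.0015 over all genes. The median score of the members was 1.157, 1.157 and 1.128 in DOX libraries and 1.165, 1.176 and 1.211 in PBS libraries. It was lowest in the deepest library, DOX replicate 3, and highest in the shallowest, PBS replicate 3. Depth and group cannot be told apart here, and the part of depth in this lean was not tested. The summits of these members held at least 35, 38 and 54 fragments in DOX libraries and 27, 28 and 16 in PBS libraries, with medians of 237.5, 261.5 and 341 in DOX libraries and 183, 174.5 and 84.5 in PBS libraries. The difference was under 0.1 in size for 67 of the 88 members. The median SD within groups was 0.0736 for members and 0.0793 for all genes tested.

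The 5 largest differences upward began with 2 assembly factors of complex I. Ndufaf3 stood at 5.66, 6.28 and 5.10% in DOX libraries and 7.52, 8.85 and 9.88% in PBS libraries. The groups did not overlap, and the score was higher by 0.22 in DOX libraries (SE 0.061; limma adjusted p = 0.102). Ndufaf7 had 3.84, 4.09 and 3.29% in DOX libraries and 4.35, 4.602 and 7.72% in PBS libraries, also without overlap (+0.18, SE 0.073; limma adjusted p = 0.270). Ends of Dalrd3 and Impdh2 lie within 1 kb of an end of Ndufaf3, and an end of Cebpz within 1 kb of an end of Ndufaf7. By the gene span nearest to its summit, the Ndufaf3 peak was assigned to another gene in all DOX libraries. The same held in PBS replicates 1 and 2. Uqcr11, whose promoter holds a GABP/ETS match, stood at 5.61, 6.45 and 5.07% in DOX libraries and 7.22, 6.09 and 10.1% in PBS libraries, and the groups overlapped (+0.15, SE 0.068; limma adjusted p = 0.301). Ndufa1 (+0.13, limma adjusted p = 0.473) and Ndufb11 (+0.10, limma adjusted p = 0.709), with the values given above, completed the 5. PBS replicate 3 had the weakest position in all 5. Without it the differences were +0.19 for Ndufaf3, +0.085 for Ndufaf7, +0.078 for Uqcr11, +0.097 for Ndufa1 and +0.017 for Ndufb11.

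The 5 largest differences downward included a pair of ATP synthase genes. Ndufa6, a supernumerary subunit of complex I, stood at 1.63, 2.15 and 3.19% in DOX libraries and 1.55, 1.23 and 0.809% in PBS libraries. The groups did not overlap, and the score was −0.27 in DOX libraries relative to PBS libraries (SE 0.085; limma adjusted p = 0.155). Atp5g2 had 4.31, 6.28 and 6.90% in DOX libraries and 4.39, 3.92 and 2.51% in PBS libraries, where 1 DOX library lay among the PBS libraries (−0.23, SE 0.075; limma adjusted p = 0.162). Ndufa2, also a supernumerary subunit of complex I, had 5.56, 4.66 and 3.53% in DOX libraries and 2.96, 2.95 and 3.07% in PBS libraries, without overlap (−0.19, SE 0.067; limma adjusted p = 0.200). Atp5b, the catalytic beta subunit of ATP synthase, had 2.46, 1.54 and 2.46% in DOX libraries and 1.39, 1.77 and 1.01% in PBS libraries, with overlap (−0.18, SE 0.080; limma adjusted p = 0.303). Cox7b followed, with the values given above (−0.16, SE 0.182; limma adjusted p = 0.715), and without PBS replicate 3 its difference was 0.0043. In Ndufa6, Atp5g2, Atp5b and Cox7b the strongest position was that of PBS replicate 3, the shallowest library. Without it the differences were −0.20 for Ndufa6, −0.16 for Atp5g2 and −0.12 for Atp5b, while Ndufa2 stayed at −0.19. The part of depth in these differences was not tested.

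**Figure D5:**
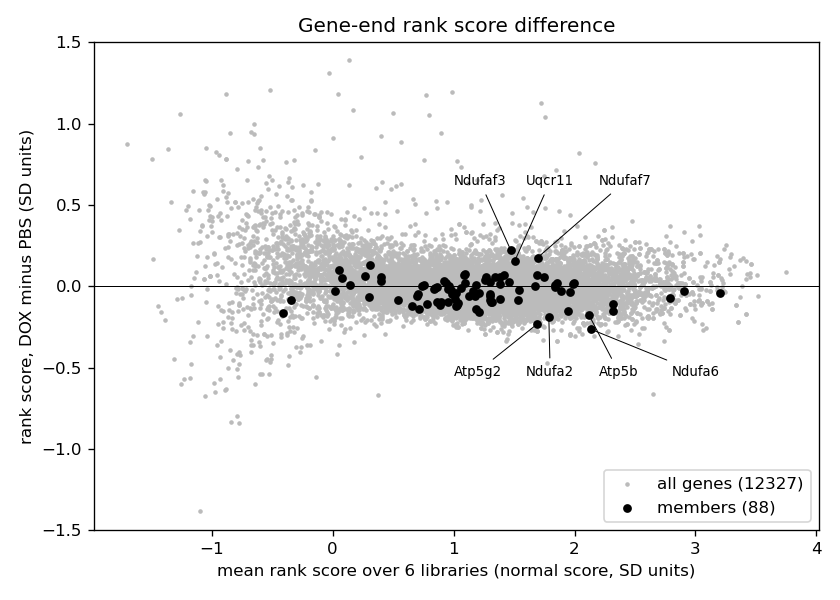
Difference of the rank score, DOX minus PBS (vertical axis, SD units), against the mean score over 6 libraries (horizontal axis, higher for stronger peaks), for 12327 genes (grey) and the 88 members (black); 3 grey genes lie beyond the axis limit of 1.5. All members lie within 0.27 of 0, and none passed an adjusted p of 0.05.

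Beyond gene ends, merged peaks of all libraries gave 173 regions nearest to a member, of 78613 regions in all. At gene ends lay 82 (47.4%), against 16.1% of all regions, 29 (16.8%) lay inside members, against 45.0%, and 62 (35.8%) outside, against 29.3%. The rest of all regions had no protein-coding gene within 100 kb. Peaks in all 6 libraries were found in 133 (76.9%), against 62.5%. No region of a member was present in all libraries of one group and none of the other, beside 0.792% of all regions for DOX and 0.303% for PBS. Regions shared by all libraries were weaker away from gene ends, with a median position of 41.9% over 58 regions at 34 members, than at gene ends, with 13.8% over 75 regions. Of the 58, 4 hold an annotated start inside the gene span, those of Atp5d, Atp5g3, Cox5a and Cox7a2, and the other 54 had a median of 43.5%. The region at the starts of Atp5d, the delta subunit of ATP synthase (chr10:80140903-80143130), stood at 2.56, 3.18 and 2.33% in DOX libraries and 1.96, 2.08 and 2.31% in PBS libraries. The groups did not overlap, with a score difference of −0.099 (SE 0.068, limma adjusted p = 0.556). The gene-end value of Atp5d, used in the gene-end test, came from a weaker peak. That peak stood at 36.4, 31.8 and 31.8% in DOX libraries and 36.6, 35.1 and 34.7% in PBS libraries. The strongest outside a gene lay 12044 bp from Cox4i1, the common form of subunit 4 of complex IV, at 7.58, 13.1 and 13.996% in DOX libraries and 9.52, 10.5 and 12.1% in PBS libraries.

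Limma on the 133 shared regions called none, beside 0% of all 49098 shared regions, with or without a gene nearby. At an unadjusted p of 0.05 it listed 16, of which 8 were higher and 8 lower in DOX libraries, beside 13% of all (8.07% higher and 4.89% lower). The smallest adjusted p was 0.204, for a region 16206 bp from Uqcrfs1, the gene of the Rieske iron-sulfur protein of complex III. It stood at 57.5, 55.5 and 68.3% in DOX libraries and 94.1, 74.7 and 88.1% in PBS libraries, without overlap (+0.87, SE 0.267). In Atp5g2 an internal region (chr15:102663543-102664434) stood at 23.0, 20.3 and 17.7% in DOX libraries and 26.4, 26.2 and 25.996% in PBS libraries (+0.20, SE 0.065; limma adjusted p = 0.234), the opposite direction to the peak at its start. Over all 133 regions 52 were higher and 81 lower in DOX libraries, with a median of −0.028 beside 0.015 for all shared regions. The part of depth in this lean was not tested either. All DOX libraries stood above all PBS libraries in 8 of the 133 (10.9% of all shared regions) and below in 17 (7.85%).

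The number of peaks assigned to a member, those with their summit within 100 kb and nearest to its span, differed little between libraries. The members summed to 151, 152 and 153 peaks in DOX libraries and to 156, 157 and 155 in PBS libraries, so that each DOX library had fewer than each PBS library. Here too depth and group cannot be told apart. Over all protein-coding genes the sums were 59567, 59687 and 59724 in DOX libraries and 59501, 59505 and 59868 in PBS libraries, and the groups overlapped. The number was identical in all 6 libraries for 63 members, of which 41 had exactly 1 peak and 12 had none. Of these 12, 8 had an open gene end whose peak was nearer to a neighbour by its summit, and Cox7b2, Cox8c, Ndufb4b and Ndufb4c had no gene-end peak. Of 31 members with a mean of at least 2 peaks, limma on log2(peaks + 0.5) called none, beside 1.11% of genes tested (0.569% higher and 0.546% lower in DOX libraries), and listed 0 at an unadjusted p of 0.05, beside 5.52%. Cox4i1 had 6, 7 and 7 peaks in DOX libraries and 7, 9 and 7 in PBS libraries. Atp5g2 had 7, 7 and 6 peaks in DOX libraries and 7, 5 and 7 in PBS libraries, and Ndufa10, of complex I, had 6, 7 and 7 in DOX libraries and 6 in each PBS library. Uqcrfs1 had 6, 6 and 7 in DOX libraries and 5, 7 and 6 in PBS libraries, and Ndufs4, of complex I, had 4, 6 and 4 in DOX libraries and 4, 4 and 5 in PBS libraries.

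The genes that build and regulate the chain were open as well. Of 44 genes for electron carriers and assembly of complexes, 43 had an open end in all 6 libraries, and limma called none of them; 1 was higher and 2 were lower in DOX libraries at an unadjusted p of 0.05, which over all genes held for 7.58% and 7.05%. That higher one was Lyrm7, a chaperone that helps to insert the Rieske protein, at a mean of 0.820% in DOX libraries and 1.77% in PBS libraries (+0.29, SE 0.077; limma adjusted p = 0.0948). Cycs, the gene of cytochrome c, averaged 2.56% in DOX libraries and 2.92% in PBS libraries. Of 26 regulators and genes for upkeep of mitochondrial DNA, 23 were open in all 6, none was called by limma, and 0 were higher and 2 lower at an unadjusted p of 0.05, beside the same shares of all genes. Tfam, which packages mitochondrial DNA, averaged 2.05% in DOX libraries and 2.16% in PBS libraries, and Nrf1, the factor of the motif above, 8.39% in DOX libraries and 7.71% in PBS libraries. Ppargc1a, a coactivator of respiration genes, had a weak peak at 56.7% in DOX libraries and 63.0% in PBS libraries, while among the estrogen-related receptors Esrrb and Esrrg had no peak at either end and Esrra stood at 1.24% in DOX libraries and 1.53% in PBS libraries.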

How the data were processed

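Groups and replicate numbers came from the sample titles. The authors deposited a peak list per library, on mm10 per the submitters' processing notes, which name Trim Galore 0.6.6, Bowtie2 2.4.5, Picard 2.10.9 and MACS2 2.2.7.1 with no role or order. Not given in the sources used here are caller settings, the shift for the Tn5 cut and read filters. For every peak the deposited lists hold the authors' score, fold enrichment (a ratio to the background of the caller), −log10 p and −log10 q, none scaled between libraries. The background was recovered from the steps of the fold values. It gave whole pileups in 100% of peaks with a −log10 p under 200 (tolerance 0.05), and stronger peaks were not part of this check. The weakest kept peak had 20, 21 and 28 fragments in DOX libraries and 16, 14 and 5 in PBS libraries.

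Peaks on chromosomes 1 to 19 and X were put in order of −log10 p and cut to the top 65462, the length of the shortest list. Gene spans came from a RefSeq table of GRCm38.p6, without strand or exons, and starts from a RefSeq table of promoters. Regions are peaks of all libraries merged when they overlap by 1 bp. Scores of the ranks, and log2(peaks + 0.5) for genes that averaged 2 peaks or more, were fitted with limma 3.58.1 (trend, robust; group only; Benjamini-Hochberg over all features), checked on simulated data. Plots used matplotlib 3.10.9.

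The members and lists were chosen with earlier results of these data known. Members named are those without a gene-end peak in some library, the 5 highest and 5 lowest differences, the 5 strongest, isoforms with their partners, the 5 with most peaks and complex II; others were chosen after their values were seen. A result of 1 member is not reported here. Alternatives changed the lists, windows, ranking, filters, moderation and libraries. Ranking by fold enrichment gave the same values as ranking by −log10 p, so it is no separate check.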

Additional observations from a re-analysis of the deposited data

How the results depend on the processing

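No member was called in gene-end ranks or in region ranks under any alternative run, except 1 when the summit had to lie within the window. Peaks per gene gave 0 to 3 called members when 1 library was left out. Without DOX replicate 1 these were Ndufa10, Cox7a2l and Atp5g3, where 2.30% of all genes tested were called. Without PBS replicate 1 it was Ndufb4 (1 member), where 2.71% were. In each of them the libraries left in a group had equal numbers, and the groups differed by 1 peak. Ndufa10, for example, had 7 and 7 peaks in DOX libraries and 6 in each PBS library. No spread within groups was left, so these calls cannot measure it. With the spread of each gene raised to at least the mean of genes of similar level, 0% of all genes tested were called. Members open in all libraries numbered 83 to 89. With full lists of unequal length the median difference of members was 0.066, while that of all genes moved to 0.10, so that members stood below all genes there too. Reversals of single members were looked for only among the 5 highest and 5 lowest differences and in complex II, not in the other members. Within that selection the differences of Cox7b, among the 5 lowest as reported, Sdhc and Sdha reversed. Cox7b was 0.062 and Sdhc 0.029 with full lists. With 1 library left out Cox7b ranged from −0.297 to 0.0043 (without PBS replicate 3) and Sdha from −0.019 (without DOX replicate 2) to 0.079. The cause was not tested. The adjusted p of Ndufaf3 ranged from 0.0549 to 0.442 and that of Ndufa6 from 0.0794 to 0.585.

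Same-numbered libraries did not deviate together (r = 0.00942, −0.0161 and −0.0680), so the numbers were not taken as pairs. The replicate block called 0 members in each of the 3 tests, and over all genes 31 higher and 1 lower against 40 and 14 for gene ends, 26 and 3 against 0 and 0 for regions, and 21 and 16 against 50 and 48 for peaks per gene. Over all alternatives the share of all features called ran from 0.0795% to 0.784% for gene ends (0.438% as reported), from 0% to 0.162% for regions (0%) and from 0% to 3.21% for peaks per gene (1.11%).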
